A study of Mus musculus with 36 samples.

Results

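The RNA of 10 genes of monocytes and neutrophils was followed in 36 bulk RNA-seq libraries of 3 liver cell preparations from C57BL/6 mice: S100a8, S100a9, Retnlg, Lyz2, Csf3r, Cxcr2, Ccr2, Itgam, Ly6c2 and Plac8. They were chosen by name as genes of myeloid cells that can be recruited to the liver, and all 10 were found among the 24421 gene symbols of the count files. The preparations were hepatic stellate cells (HSC), which lie beside the sinusoids and store vitamin A, liver sinusoidal endothelial cells (LSEC), which form the wall of these vessels, and hepatocytes, the cells of the parenchyma. Each cell type had 4 libraries labelled WT, from mice that received PBS according to the series design, 4 from mice 12 h after diphtheria toxin and 4 from mice 36 h after it. The toxin was used to deplete Kupffer cells, the macrophages that reside in the sinusoids. The genotype that makes Kupffer cells sensitive to the toxin is not stated in the labels, and there was no toxin-treated group with intact Kupffer cells. The labels do not say whether each library is 1 mouse, so p-values measure the spread between libraries.

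Neutrophils and monocytes are bone marrow cells that leave the blood at sites of injury. Neutrophils carry S100A8 and S100A9 in abundance and follow CXCL chemokines through CXCR2, while classical mouse monocytes carry Ly6C and leave the marrow through CCR2, the receptor of CCL2. Monocytes that enter a liver emptied of Kupffer cells can settle there and take on the programme of the resident macrophages. Some of the genes are not private to these cells: Lyz2 is used by macrophages in general, Kupffer cells included, and Plac8 is expressed outside the blood lineages too.

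Libraries held 25404719 to 31734631 counts in genes. Levels are given as CPM, the count scaled to a common library total, and a count of 0 allowed a level of up to 0.0945 to 0.118 CPM (3 counts, counting error only). The labelled cell types carried their own markers: 10 stellate cell genes summed to 38000 ± 3570 CPM in HSC WT, 10 endothelial genes to 31400 ± 1460 CPM in LSEC WT and 10 hepatocyte genes to 64300 ± 5300 CPM in hepatocyte WT libraries (SD, n = 4 each). Kupffer cell RNA was a trace in all preparations and nearly gone at 12 h. The summed level of Clec4f, Timd4, Vsig4, Cd5l and Marco was 0.0919 ± 0.0722 CPM in HSC 12 h and 6.62 ± 4.56 CPM in HSC WT (SD, n = 4). It was 0.176 ± 0.245 CPM in LSEC 12 h and 13.3 ± 4.97 CPM in LSEC WT, and 0 CPM in all 4 hepatocyte 12 h libraries against 5.08 ± 5.58 CPM in hepatocyte WT. Replicate 4 at 36 h stood apart. Those 5 genes summed to 10.7 CPM in HSC 36 h replicate 4, against 0.101 to 0.309 CPM in the other HSC 36 h libraries, and to 12.1 CPM in LSEC 36 h replicate 4, against 0.208 to 1.64 CPM in the others. Both libraries lay inside the WT range for Kupffer genes. Some results at 36 h that rest on them are given with and without them, and others only with them.

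The 8 genes other than Plac8 and Lyz2 were scarce everywhere. Together they came to 2.81 ± 0.969 CPM in LSEC WT, 6.06 ± 3.16 CPM at 12 h and 4.96 ± 5.03 CPM at 36 h. The HSC sums were 1.09 ± 0.139 CPM in WT, 1.17 ± 0.224 CPM at 12 h and 1.27 ± 0.685 CPM at 36 h, most of it Cxcr2. The hepatocyte sums were 0.713 ± 0.664 CPM in WT, 0.335 ± 0.365 CPM at 12 h and 0.373 ± 0.173 CPM at 36 h (SD, n = 4 each). In a bulk library, fewer cells of a type and less RNA per cell cannot be told apart. After a filter on low counts, 3 of the 10 genes could be tested in HSC (Plac8, Lyz2 and Cxcr2), 9 in LSEC (all but Retnlg), 2 in hepatocytes (Plac8 and Lyz2) and 9 in a joint fit of all 36 libraries (all but Retnlg).

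**Figure D1:**
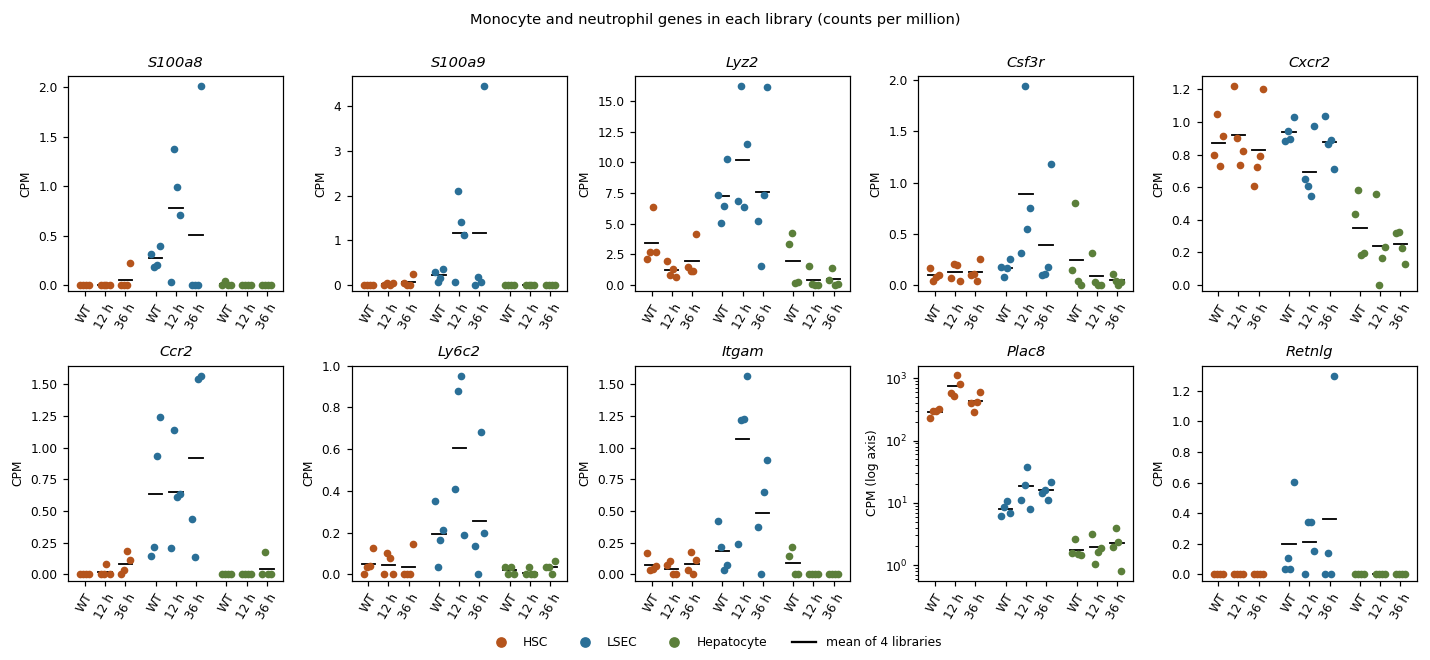
Each panel plots 1 gene in CPM (Plac8 on a log axis), with a point per library and a bar at the mean of 4 libraries, for HSC, LSEC and hepatocytes at WT, 12 h and 36 h. The rare neutrophil and monocyte genes other than Csf3r are seen mainly in LSEC libraries, Csf3r is also read in hepatocyte WT replicate 2, Cxcr2 lies at similar levels in HSC and LSEC, and Plac8 is highest in HSC, with means of 286 CPM in WT, 753 CPM at 12 h and 424 CPM at 36 h.

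S100a8 and S100a9 encode the paired calcium-binding proteins that fill the neutrophil cytosol, and lie near each other on mouse chromosome 3 (90668978 to 90670035, plus strand, and 90692632 to 90695721, minus strand, GRCm38). Their reads came mainly from LSEC. S100a8 had 9, 5, 6 and 11 reads in LSEC WT, 1, 36, 29 and 19 in LSEC 12 h and 0, 0, 0 and 51 in LSEC 36 h. S100a9 had 8, 2, 5 and 10 reads in LSEC WT, 2, 55, 41 and 30 in LSEC 12 h and 0, 5, 2 and 113 in LSEC 36 h. Replicates 2 to 4 at 12 h were above every WT library for both genes, replicate 1 at 12 h was no higher than the lowest WT library, and at 36 h almost all reads came from replicate 4.

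The edgeR test, a quasi-likelihood F test with Benjamini-Hochberg adjustment over all genes tested, called neither gene. S100a8 differed by a log2 fold of 1.5 ± 1.27 (SE, adjusted p = 0.45) between LSEC 12 h and LSEC WT, and S100a9 by 2.4 ± 1.3 (adjusted p = 0.219). At 36 h the log2 folds against WT were 0.76 ± 1.3 for S100a8 (adjusted p = 0.874) and 2.3 ± 1.3 for S100a9 (adjusted p = 0.561). Without LSEC 36 h replicate 4 the S100a9 log2 fold was -1.41 (adjusted p = 0.913), and S100a8 had 0 reads in the other 3 libraries, at least 7.96-fold lower than in LSEC WT (floor of 3 counts over the group). Between 36 h and 12 h edgeR and DESeq2 each called 0 of 9 members in LSEC, with 0 at an unadjusted p under 0.05 and 21.3% of genes called. Without replicate 4 at 36 h, S100a9 (log2 fold -3.81, adjusted p = 0.021), Csf3r (-2.78, adjusted p = 0.0142) and S100a8 (adjusted p = 0.0071) were called lower at 36 h than at 12 h. S100a8 then had 0 reads against 85 in LSEC 12 h, at least 22.3-fold lower. The library left out was the highest of its group for these genes. Without it they pass the count filter largely through 12 h libraries, which favours a lower level at 36 h. These calls and bounds therefore support no direction.

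Leukocyte RNA in general also differed among these libraries. Ptprc, the leukocyte surface antigen CD45, stood at 0.884, 0.656, 0.997 and 1.64 CPM in LSEC WT, 0.479, 2.02, 1.33 and 2.81 CPM in LSEC 12 h and 0.942, 0.312, 1.81 and 2.6 CPM in LSEC 36 h. Replicate 1 was the lowest 12 h library for Ptprc as for S100a8 and S100a9, and replicate 4 the highest 36 h library. The 18 pan-leukocyte genes listed, none of them at 0 over a group, summed to 433 to 488 CPM in LSEC WT, 464 to 545 CPM at 12 h and 472 to 509 CPM at 36 h. Arhgdib (273 CPM), Lcp1 (109 CPM) and Fcer1g (53.3 CPM) made most of the LSEC WT mean of 460 CPM. Arhgdib also averaged 193 CPM in HSC WT and Lcp1 108 CPM in hepatocyte WT, so this sum is no measure of leukocyte RNA. The part of leukocyte RNA in the spread of S100a8 and S100a9 was not tested.

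Outside LSEC the pair was nearly absent. In HSC, S100a8 had 0 reads in all WT and 12 h libraries and 6 reads in replicate 4 at 36 h. S100a9 had 0 reads in HSC WT, 2 over the 4 libraries at 12 h and 8 at 36 h, of which 7 were in replicate 4. The 12 hepatocyte libraries held 1 read of S100a8, in WT replicate 2, and 0 of S100a9. HSC and LSEC replicate 4 at 36 h, which had the most Kupffer gene RNA of their groups, thus also had the most S100a8 and S100a9, and the link was not tested.

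Retnlg, a resistin-like protein secreted by mouse neutrophils (chromosome 16, 48872621 to 48874496), was read in LSEC libraries and had 0 reads in all HSC and hepatocyte libraries. It had 1, 3, 1 and 17 reads in LSEC WT, 0, 9, 10 and 4 in LSEC 12 h and 0, 4, 0 and 33 in LSEC 36 h. The groups overlapped, and WT replicate 4 and 36 h replicate 4, the highest libraries of their groups for Retnlg, were also the highest for S100a8 and S100a9. The sum of the 3 genes ran from 0.364 to 1.35 CPM in LSEC WT, 0.103 to 3.81 CPM at 12 h and 0 to 7.75 CPM at 36 h.

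**Figure D2:**
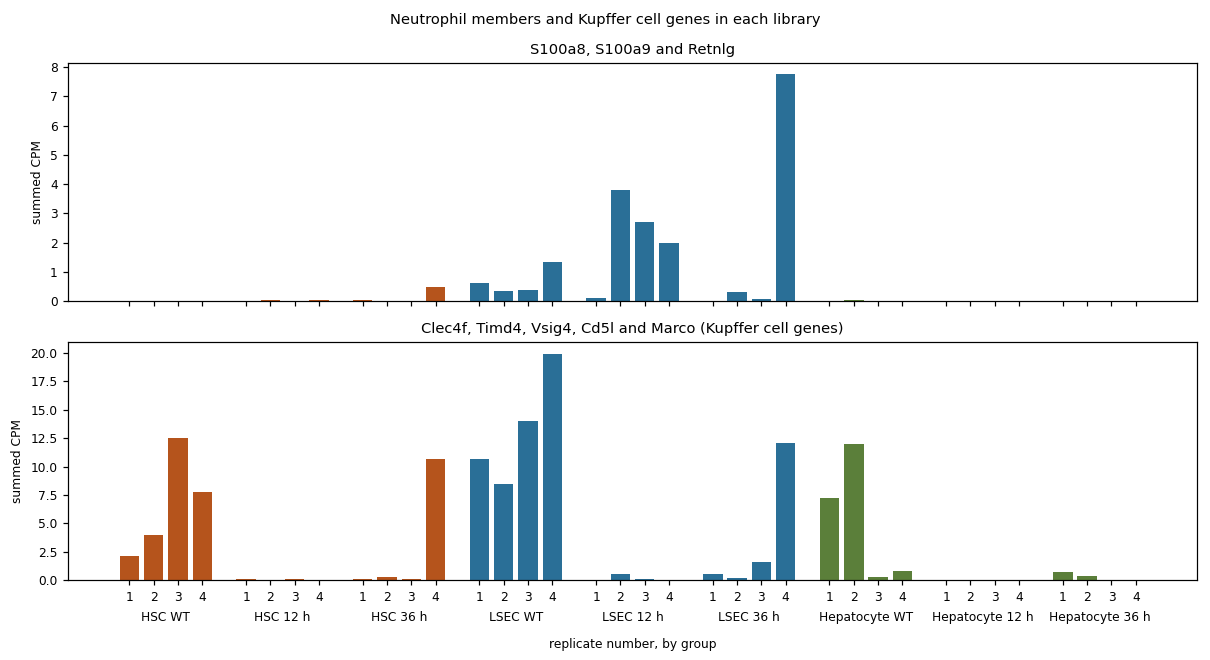
Bars give the summed CPM of S100a8, S100a9 and Retnlg (top) and of 5 Kupffer cell genes (bottom) in each of the 36 libraries, numbered by replicate within its group. LSEC 12 h replicates 2 to 4 and LSEC 36 h replicate 4 hold most of the RNA of these 3 neutrophil genes, and HSC and LSEC replicate 4 at 36 h (10.7 and 12.1 CPM) hold Kupffer gene RNA at the WT level.

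Genes of neutrophil granules were read unevenly across the preparations. Ngp and Camp, made at the marrow stages, had 0 reads in LSEC WT, and Ngp reached 1.11 CPM in LSEC 12 h replicate 2 with 0 reads in the other 12 h libraries. Mmp8, a collagenase of mature granules, stood at 0, 0.419, 0.272 and 0.562 CPM in LSEC 12 h, and Mmp9, a gelatinase, at 0.342, 1.91, 0.408 and 0.787 CPM. Mmp9 averaged 0.283 ± 0.32 CPM in LSEC WT, 0.861 ± 0.724 CPM at 12 h and 0.595 ± 0.909 CPM at 36 h (SD, n = 4). Prtn3, the serine protease proteinase 3, went the other way between cell types. It averaged 1.17 ± 0.281 CPM in HSC WT, 1.08 ± 0.23 CPM at 12 h and 2.13 ± 0.806 CPM at 36 h (SD, n = 4), and LSEC held 0 reads in WT, 0 at 12 h and 1 at 36 h. Hepatocytes averaged 0.154 ± 0.0922 CPM of Prtn3 in WT, 1.07 ± 1.32 CPM at 12 h and 0.448 ± 0.394 CPM at 36 h (SD, n = 4). Elane, neutrophil elastase, likewise had 0 reads in all LSEC libraries, with 0, 9 and 7 reads in HSC and 0, 13 and 5 in hepatocytes at WT, 12 h and 36 h. Ltf, lactoferrin, had 9, 13 and 13 reads in HSC and 8, 11 and 1 in LSEC at these times.

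The wider neutrophil list was mixed as well. Of 22 further neutrophil genes listed, 21 were in the files and 7 were tested in LSEC, of which 4 rose at 12 h (Hdc, Lcn2, Cxcl2 and Irg1) and 0 fell, with a median log2 fold of 1.59 beside -0.02 over all genes and 9.74% of genes called higher. Scarce genes such as Lcn2 (0.0966 CPM in LSEC WT, 5.49 CPM at 12 h) and Irg1 (0.106 and 0.787 CPM) pass the count filter through libraries where they are high. The count and median therefore support no direction. Lcn2 and Cxcl2 also rose in HSC (2 of 5 tested), where S100a8 had 0 reads at 12 h, and Hdc stood at 186 CPM in LSEC WT. Leaving out Hdc, Wfdc21, Lcn2 and Cxcl2, a choice made after their values were seen, the remaining 17 genes summed to 1.37 ± 0.88 CPM in LSEC WT, 3.97 ± 1.91 CPM at 12 h and 2.01 ± 1.92 CPM at 36 h (SD, n = 4). They summed to 1.51 ± 0.289, 1.46 ± 0.152 and 2.8 ± 1.25 CPM in HSC and to 0.536 ± 0.517, 1.29 ± 1.46 and 0.499 ± 0.402 CPM in hepatocytes at WT, 12 h and 36 h (SD, n = 4). Of these 17 genes, 9 had no read in any LSEC WT library, 3 in any 12 h library and 5 in any 36 h library.

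Lyz2 encodes lysozyme M (chromosome 10, 117277331 to 117282321, minus strand), the enzyme with which macrophages and neutrophils attack bacterial walls. In HSC it had 2.12, 2.68, 6.32 and 2.71 CPM in WT, 1.97, 0.795, 1.32 and 0.644 CPM at 12 h and 1.48, 1.17, 1.12 and 4.18 CPM at 36 h. All 12 h libraries lay below all WT libraries, as for 13.7% of genes, while at 36 h replicate 4 lay among the WT values and the other 3 below them. Lyz2 fell in HSC at 12 h (log2 fold -1.55 ± 0.50 SE, adjusted p = 0.029). It was 1 of 2 members called in that comparison, in which 32% of 12676 genes were called and 15.1% were called lower. The call was lost without HSC WT replicate 3 (adjusted p = 0.117) or HSC 12 h replicate 2 (0.0679), 3 (0.0556) or 4 (0.0708). At 36 h the log2 fold against WT was -0.81 ± 0.48 (adjusted p = 0.85).

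Kupffer cell genes moved with Lyz2 in HSC. Vsig4, a complement receptor of Kupffer cells, averaged 0.0187 CPM in HSC 12 h and 2.32 CPM in HSC WT, and Cd5l, a secreted scavenger protein, 0.047 CPM in HSC 12 h and 3.02 CPM in HSC WT. Of 7 Kupffer genes tested 5 fell at 12 h and 0 rose, beside 15.1% of all genes called lower. Vsig4, Cd5l and Folr2 (0.113 CPM at 12 h, 0.657 CPM in WT) pass the count filter through libraries where they are high. The count of Kupffer genes therefore supports no direction. Slc40a1, also among those that fell, averaged 655 CPM in HSC WT, far above Vsig4 and Cd5l, and 174 CPM in hepatocyte WT. Of 12 pan-leukocyte genes tested 2 fell and 0 rose, a share near the 15.1% of all genes called lower: Tyrobp, an adaptor of myeloid receptors, averaged 0.113 CPM at 12 h and 0.674 CPM in WT, and Cd53, a leukocyte tetraspanin, 0.613 CPM at 12 h and 2.16 CPM in WT. The HSC libraries with the most Lyz2 in WT (replicate 3) and at 36 h (replicate 4) were those with the most Kupffer gene RNA, at 12.5 and 10.7 CPM. The part of Kupffer cell RNA in the fall of Lyz2 was not tested.

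In LSEC 5 of 10 tested Kupffer genes fell at 12 h, beside 18.2% of genes called in either direction. Genes such as Vsig4 (0.0286 CPM at 12 h, 3.64 CPM in WT) and Timd4 (0 and 0.908 CPM) pass the count filter through libraries where they are high. That count therefore supports no direction. Lyz2 was not called. Lyz2 had 7.35, 5.03, 6.45 and 10.3 CPM in WT, 6.84, 16.2, 6.36 and 11.5 CPM at 12 h and 5.18, 1.53, 7.35 and 16.1 CPM at 36 h. The groups overlapped, and the log2 fold at 12 h was 0.50 ± 0.50 (adjusted p = 0.533). The change at 12 h in HSC minus that in LSEC was -2.06 ± 1.16 on the log2 scale, which the joint fit did not call (adjusted p = 0.524). Across the 12 LSEC libraries the genes whose log2(CPM + 1) was most like that of Lyz2 were Cd68 (Pearson r = 0.917), a lysosomal protein of macrophages, Ubxn1 (0.872) and Cybb (0.871), the catalytic subunit of the phagocyte oxidase. Cd68 averaged 1.29 ± 0.705 CPM in LSEC 12 h and 1.42 ± 0.427 CPM in LSEC WT (SD, n = 4).

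Hepatocyte libraries fell on either side of 100 CPM of Malat1, a nuclear RNA, and Lyz2 went with that split. In the 5 libraries above it (263 to 559 CPM of Malat1), Lyz2 lay at 0.427 to 4.21 CPM, and in the 7 below it (23.7 to 42.5 CPM) at 0 to 0.264 CPM. Lyz2 had 3.31, 4.21, 0.148 and 0.264 CPM in hepatocyte WT, 1.57, 0.0981, 0 and 0 CPM at 12 h and 0.427, 1.36, 0 and 0.0653 CPM at 36 h. The split crossed the groups, with 2 of the WT, 1 of the 12 h and 2 of the 36 h libraries above it. Log2 folds against WT were -2.34 ± 1.37 (adjusted p = 0.999) at 12 h and -2.04 ± 1.35 (adjusted p = 1) at 36 h, and a fit with a term for the split called neither tested member. In hepatocytes edgeR called 0 of 2 members and 0 of 11326 genes (0%) at 12 h and at 36 h against WT and between these times. In the same 3 comparisons 453, 563 and 725 genes, none of them a member, had an unadjusted p under 0.05, and DESeq2 called 47, 60 and 24 genes, again no member.

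Among the receptors, Csf3r binds granulocyte colony-stimulating factor, which drives neutrophil production (chromosome 4, 126024550 to 126044440). It had 5, 2, 5 and 7 reads in LSEC WT, 9, 51, 16 and 20 in LSEC 12 h and 3, 3, 5 and 30 in LSEC 36 h. All 12 h libraries were above all WT libraries, as for 11.3% of genes tested in LSEC, and at 36 h replicate 4 alone was. The log2 fold at 12 h of 2.38 ± 0.83 missed the threshold (adjusted p = 0.061). It passed with DESeq2 (adjusted p = 0.0273) and without LSEC 12 h replicate 1 (0.0494) or LSEC 36 h replicate 4 (0.0161), which enters through the shared spread. At 36 h the log2 fold against WT was 1.12 ± 0.85 (adjusted p = 0.677), and -0.40 without replicate 4 (adjusted p = 0.972). In HSC, Csf3r had 1 to 7 reads in every library. Hepatocytes had 4, 22, 1 and 0 reads in WT, 9, 1, 0 and 0 at 12 h and 3, 1, 0 and 1 at 36 h. Their WT mean of 0.245 ± 0.374 CPM, most of it from replicate 2, lay above the LSEC WT mean of 0.166 ± 0.0723 CPM (SD, n = 4).

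Ccr2, the monocyte receptor of CCL2 (chromosome 9, 124101950 to 124113557), was present in LSEC from mice without toxin. It had 4, 6, 28 and 35 reads in LSEC WT, 6, 30, 18 and 17 in LSEC 12 h and 13, 4, 45 and 40 in LSEC 36 h. Each group held libraries with few and with many reads, and the means were 0.634 ± 0.54 CPM in WT, 0.649 ± 0.384 CPM at 12 h and 0.923 ± 0.743 CPM at 36 h (SD, n = 4). The log2 folds against WT were 0.04 ± 0.78 at 12 h (adjusted p = 0.979) and 0.49 ± 0.77 at 36 h (adjusted p = 0.859). The LSEC libraries with the fewest Ccr2 reads at 12 h (replicate 1) and 36 h (replicate 2) also had the least Ptprc of their groups, at 0.479 and 0.312 CPM. In LSEC WT they differed, with the fewest Ccr2 reads in replicate 1 and the least Ptprc in replicate 2. The part of leukocyte RNA in the spread of Ccr2 was not tested. HSC had 0 Ccr2 reads in WT, 2 at 12 h and 9 at 36 h over 4 libraries each, and hepatocytes had 5 in all, in 36 h replicate 2.

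Cxcr2, the neutrophil receptor of CXCL1, CXCL2 and CXCL5 (chromosome 1, 74153989 to 74161246), did not follow the other neutrophil genes. HSC had 0.796, 1.05, 0.733 and 0.914 CPM in WT, 1.22, 0.899, 0.738 and 0.823 CPM at 12 h and 0.605, 0.721, 0.792 and 1.2 CPM at 36 h, and the groups overlapped. LSEC averaged 0.94 ± 0.0667 CPM in WT, 0.694 ± 0.191 CPM at 12 h and 0.877 ± 0.137 CPM at 36 h (SD, n = 4). HSC libraries held 18 to 34 reads of Cxcr2 each with at most 7 of S100a9. LSEC 36 h replicate 4, the highest library of its group for S100a8, S100a9 and Retnlg, had the fewest Cxcr2 reads of its group (18, against 25 to 31). At 12 h the log2 folds against WT were 0.06 ± 0.33 in HSC (adjusted p = 0.916) and -0.42 ± 0.33 in LSEC (adjusted p = 0.4), and HSC WT over LSEC WT was 0.06 ± 0.41 (adjusted p = 0.925).

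Itgam (CD11b, the alpha chain of the integrin Mac-1) and Ly6c2 (the Ly6C antigen of classical monocytes) are surface markers of myeloid cells. Itgam, on chromosome 7 (128062640 to 128118491), had 12, 6, 1 and 2 reads in LSEC WT, 7, 32, 36 and 42 in LSEC 12 h and 11, 0, 19 and 23 in LSEC 36 h. Replicates 2 to 4 at 12 h were above every WT library and replicate 1 lay among them. The log2 fold at 12 h of 2.50 ± 0.91 missed the threshold (adjusted p = 0.0716), and passed it with DESeq2 (0.0297), in a fit of those 8 libraries alone (0.0389) and without LSEC 36 h replicate 2 (0.0322). Itgb2, the beta chain that pairs with it, rose in LSEC at 12 h, with a mean of 2.59 CPM against 0.685 CPM in WT (log2 fold 1.92 ± 0.61, adjusted p = 0.044). The annotation places another protein-coding gene model, Gm49368, over Itgam on the same strand, so reads could be split between them.

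Ly6c2, on chromosome 15 (75108158 to 75111970, minus strand), had 10, 1, 5 and 6 reads in LSEC WT, 12, 23, 28 and 5 in LSEC 12 h and 4, 0, 20 and 5 in LSEC 36 h. The groups overlapped (log2 fold at 12 h 1.64 ± 0.85, adjusted p = 0.199). Its near-copy Ly6c1, an endothelial gene, was higher in every LSEC library, at 1.07 to 2.96 CPM in WT, 1.37 to 3.51 CPM at 12 h and 1.64 to 3.96 CPM at 36 h. How reads that match both genes were counted is not given, so the Ly6c2 counts are uncertain. Lyz1, the near-copy of Lyz2, stayed at or below 1.53 CPM in all LSEC libraries.

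**Figure D3:**
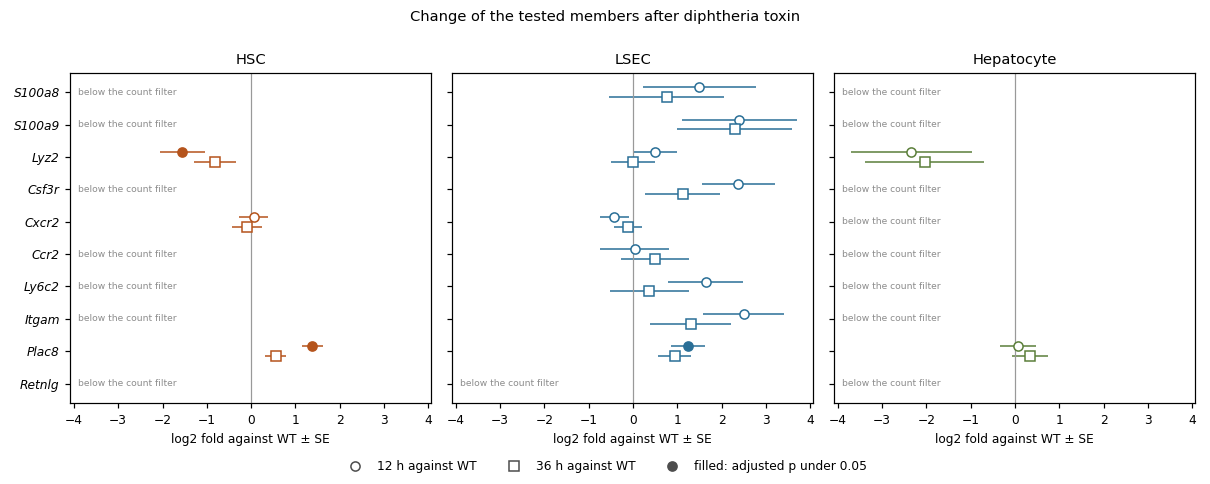
Points give the log2 fold against WT from edgeR with its SE at 12 h (circles) and 36 h (squares) for each member that passed the count filter, in HSC, LSEC and hepatocytes, and filled points have an adjusted p under 0.05. Plac8 in HSC (1.38) and LSEC (1.24) and Lyz2 in HSC (-1.55) are the filled ones, all at 12 h, and the LSEC folds of Csf3r (2.38), S100a9 (2.40) and Itgam (2.50) at 12 h have wide errors.

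In LSEC at 12 h, 8 of the 9 tested members had a positive log2 fold, with a median of 1.5 beside -0.02 over all genes tested. Genes this scarce pass the count filter through the libraries in which they are high, so these figures describe the tested members and support no direction. EdgeR called 1 of the 9, Plac8, where 18.2% of 12286 genes were called and 9.74% were called higher. An unadjusted p under 0.05 was reached by 3 members, and DESeq2 called 3 (Csf3r, Itgam and Plac8). At 36 h edgeR called 0 members and 0 of all genes (0%) in LSEC, with 1 member and 1288 genes at an unadjusted p under 0.05 and 0 members and 111 genes called by DESeq2.

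Other leukocyte genes were called in LSEC at 12 h in small numbers, beside the 9.74% of all genes called higher. Of 18 pan-leukocyte genes tested 3 rose (Lcp1, Fcer1g and Itgb2) and 0 fell. In LSEC WT Lcp1 averaged 109 CPM and Fcer1g 53.3 CPM, beside 0.685 CPM for Itgb2, and Lcp1 averaged 108 CPM in hepatocyte WT. Which cells carried this RNA was not tested. Of 12 monocyte genes tested 2 rose and 0 fell: Cd14, a co-receptor for endotoxin, averaged 27.9 CPM at 12 h and 6.01 CPM in WT, and F13a1, a coagulation factor subunit made by monocytes and macrophages, 1.33 CPM at 12 h and 0.159 CPM in WT. Prf1, the pore-forming protein of cytotoxic cells, rose too, at 5.03 CPM in 12 h and 0.162 CPM in WT libraries. Prf1 was named because it was called, and a gene this scarce in WT passes the count filter through libraries where it is high. Alone, it is no measure of cytotoxic cells. In HSC at 12 h, 2 of 8 monocyte genes tested rose and 0 fell, beside 17% of all genes called higher. Vcan, the matrix proteoglycan versican, averaged 19.3 ± 10.5 CPM in HSC 12 h and 0.968 ± 0.524 CPM in HSC WT, and Cd44, a receptor for hyaluronan, 71.7 ± 36.2 CPM in HSC 12 h and 21.5 ± 4.48 CPM in HSC WT (SD, n = 4). With so few genes tested, these shares are not set apart from those of all genes.

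Ligands of CCR2 and CXCR2 rose in the same preparations. All 6 tested of 10 listed ligand genes rose in HSC at 12 h, where 17% of genes were called higher. In LSEC 4 of 5 tested rose (Ccl2, Ccl7, Cxcl1 and Cxcl2), beside 9.74% of genes. Scarce genes such as Cxcl5 in HSC (0.504 CPM in WT, 209 CPM at 12 h) and Ccl7 in LSEC (0.0265 and 2.09 CPM) pass the count filter through libraries where they are high. The counts of ligands therefore support no direction. Ccl2 (70.6 CPM), Ccl7 (5.69 CPM) and Cxcl1 (6.67 CPM) were read in HSC WT too. Csf3, the ligand of CSF3R, was too scarce to test, with 4, 19 and 2 reads in HSC and 0, 4 and 0 in LSEC at WT, 12 h and 36 h. Ccl7, a ligand of CCR2, averaged 216 CPM in HSC 12 h and 5.69 CPM in HSC WT. In LSEC, Ccl2 averaged 66.4 CPM at 12 h and 1.11 CPM in WT (log2 fold 5.90 ± 0.89, adjusted p = 0.000931). The 10 ligand genes summed to 83.8 ± 16.3 CPM in HSC WT, 1960 ± 935 CPM at 12 h and 247 ± 207 CPM at 36 h. In LSEC they summed to 5.52 ± 4.33 CPM in WT, 118 ± 114 CPM at 12 h and 11 ± 10.1 CPM at 36 h (SD, n = 4). At 36 h none had an adjusted p under 0.05 with edgeR, while 6 of 6 in HSC and 3 of 5 in LSEC had an unadjusted p under 0.05. So had 868 of 12676 genes tested in HSC and 1288 of 12286 in LSEC.

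In HSC, Plac8 had by far the most RNA of the 10 genes. It encodes a small cysteine-rich protein (chromosome 5, 100553725 to 100572245, minus strand) that takes part in the killing of bacteria by mouse neutrophils. HSC had 228, 295, 301 and 320 CPM in WT, 577, 517, 1110 and 804 CPM at 12 h and 399, 284, 417 and 596 CPM at 36 h. Every 12 h library was above every WT library, as for 15.9% of genes, and the 36 h libraries ran from inside the WT range to above the lowest 12 h library. Per kilobase of exon, Plac8 stood at 180 CPM in HSC WT, 473 CPM at 12 h and 266 CPM at 36 h, and Lyz2 at 2.63, 0.897 and 1.5 CPM at these times. In the other preparations the gap was absent in WT: per kilobase, Plac8 stood at 5.06 CPM and Lyz2 at 5.54 CPM in LSEC WT, and Plac8 at 1.12 CPM and Lyz2 at 1.5 CPM in hepatocyte WT.

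Plac8 rose in HSC at 12 h by a log2 fold of 1.38 ± 0.24 (SE, adjusted p = 0.000966) and kept its call in all 12 fits that left out a library (log2 fold 1.16 to 1.52, adjusted p 0.00057 to 0.00455). At 36 h the log2 fold against WT was 0.56 ± 0.24 (adjusted p = 0.674). EdgeR called 0 of 3 members there, with 1 at an unadjusted p under 0.05, 0 called by DESeq2 and 0.142% of genes called. Plac8 was lower at 36 h than at 12 h (log2 fold -0.82 ± 0.24, adjusted p = 0.0198), as the 1 member of 3 called beside 27.9% of genes. That call was lost in a fit of the 8 libraries alone (adjusted p = 0.0515) and without HSC 12 h replicate 3 (0.0673) or HSC 36 h replicate 1 (0.0525) or 2 (0.0611).

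Other members had far fewer reads than Plac8 in HSC WT, where Plac8 had 6866 to 10156 per library. S100a8, S100a9, Retnlg and Ccr2 had 0 reads in every HSC WT library. Lyz2 had 64 to 164, Cxcr2 19 to 31, Csf3r 1 to 5, Itgam 1 to 5 and Ly6c2 0 to 4. The part of myeloid cells in the Plac8 RNA of HSC was not tested. Ptprc was at 0 to 0.777 CPM over the 12 HSC libraries. LSEC held more of the 8 scarce members and less Plac8, with a log2 fold of 5.31 ± 0.42 for HSC WT over LSEC WT (adjusted p = 1.06e-12).

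Across the 12 HSC libraries the genes most like Plac8 were H2-T22, a class I histocompatibility gene (Pearson r of log2(CPM + 1) = 0.993), Oasl2 (0.984) and Isg15 (0.983), genes known for their induction by interferon. Isg15 had 41.1, 81.4, 53.2 and 87.7 CPM in HSC WT, 233, 186, 632 and 320 CPM at 12 h and 90.2, 62.4, 97.7 and 195 CPM at 36 h. For Isg15 as for Plac8, the highest 12 h library was number 3 and the highest 36 h library was number 4. Isg15 rose at 12 h by a log2 fold of 2.35 ± 0.40 (adjusted p = 0.000896), Oasl2 by 1.22 ± 0.21 (adjusted p = 0.00104) and H2-T22 by 1.61 ± 0.30 (adjusted p = 0.00145). These r values describe libraries that share 3 groups, and the genes were picked for them.

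Promoters of Plac8 are shown with those of Isg15 and H2-T22, to set the gene beside those it moved with. The windows run from 250 bases before to 50 bases after each RefSeq start site on GRCm38.p6, 5′ to 3′ on the minus strand, where all of these genes lie. Capitals mark matches to 4 motifs searched on both strands. These were an interferon-stimulated response element core (GAAA, any 2 bases and GAAA), the STAT motif TTCNNNGAA, a kappa-B motif (GGGA, any 2 bases and TTCC) and the C/EBP motif TTGCNNAA. Plac8 has 2 start sites in RefSeq, with windows at chr5:100572156-100572455 and chr5:100563047-100563346, and the windows of Isg15 and H2-T22 are chr4:156200769-156201068 and chr17:36042693-36042992.
Plac8 outer start site: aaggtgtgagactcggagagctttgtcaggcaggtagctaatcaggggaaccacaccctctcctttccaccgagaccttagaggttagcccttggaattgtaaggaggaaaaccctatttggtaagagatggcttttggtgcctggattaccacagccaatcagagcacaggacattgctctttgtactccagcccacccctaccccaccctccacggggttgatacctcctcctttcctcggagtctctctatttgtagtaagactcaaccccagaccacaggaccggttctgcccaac
Plac8 inner start site: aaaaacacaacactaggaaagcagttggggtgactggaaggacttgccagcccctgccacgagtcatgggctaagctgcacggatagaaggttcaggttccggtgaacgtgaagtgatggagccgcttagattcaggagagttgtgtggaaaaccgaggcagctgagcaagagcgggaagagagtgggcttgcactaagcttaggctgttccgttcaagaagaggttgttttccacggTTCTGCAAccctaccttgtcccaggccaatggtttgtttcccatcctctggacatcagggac
Isg15: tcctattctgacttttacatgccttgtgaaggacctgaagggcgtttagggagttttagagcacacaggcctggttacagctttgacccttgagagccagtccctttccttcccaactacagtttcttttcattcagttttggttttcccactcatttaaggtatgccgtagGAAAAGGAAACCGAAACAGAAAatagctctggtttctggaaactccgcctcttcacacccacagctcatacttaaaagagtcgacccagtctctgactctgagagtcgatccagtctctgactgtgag
H2-T22: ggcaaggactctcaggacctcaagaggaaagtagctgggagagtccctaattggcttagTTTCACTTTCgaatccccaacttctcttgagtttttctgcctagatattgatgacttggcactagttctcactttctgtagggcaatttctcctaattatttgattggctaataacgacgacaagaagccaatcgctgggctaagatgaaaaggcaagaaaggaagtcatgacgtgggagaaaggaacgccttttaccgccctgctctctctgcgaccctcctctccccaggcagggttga

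In Isg15 the capitals are 3 overlapping matches to the response element core, which begin 78, 72 and 66 bases before the start site, and in H2-T22 they are 1 match that begins 191 bases before it. Of 27025 promoters of this length, 3.49% hold that core. Neither Plac8 window holds it, and the capitals in the inner one are a C/EBP match, a motif found in 10.7% of promoters. The STAT motif (8.42% of promoters) and the kappa-B motif (1.44%) had no match in these 4 windows. The Oasl2 promoter held none of the 4 motifs.

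**Figure D4:**
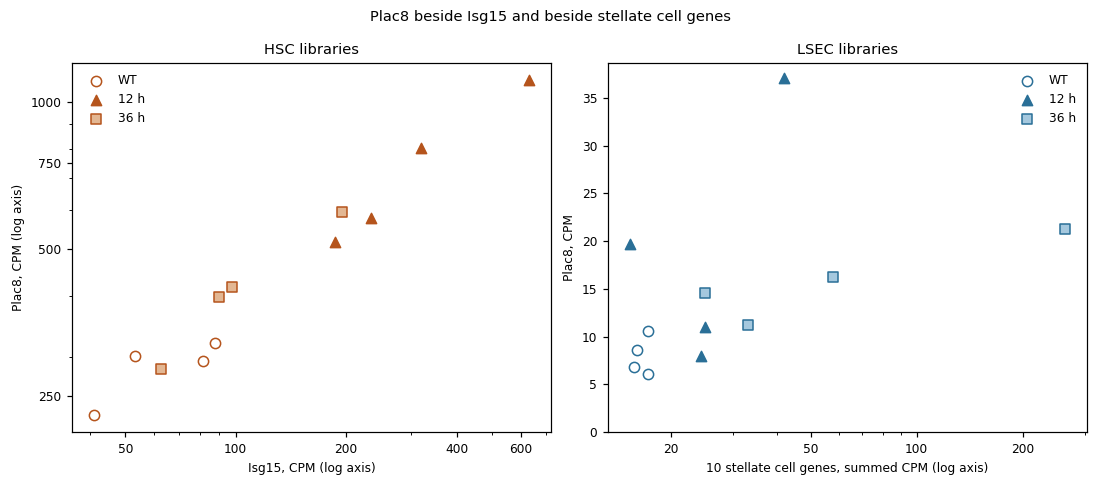
Left, Plac8 against Isg15 in the 12 HSC libraries, both in CPM on log axes. Right, Plac8 in CPM against the summed CPM of 10 stellate cell genes (log axis) in the 12 LSEC libraries. WT, 12 h and 36 h libraries are marked apart, and HSC 12 h replicate 3 (632 CPM of Isg15, 1110 CPM of Plac8) and LSEC 12 h replicate 3 (37.1 CPM of Plac8) are the highest points.

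In LSEC, Plac8 had 6.12, 8.63, 10.6 and 6.86 CPM in WT, 11, 19.7, 37.1 and 8.01 CPM at 12 h and 14.6, 16.2, 11.2 and 21.3 CPM at 36 h. It rose at 12 h (log2 fold 1.24 ± 0.38, adjusted p = 0.0377), though replicate 4 at 12 h lay inside the WT range. Without LSEC 12 h replicate 3, the highest, the log2 fold was 0.68 (adjusted p = 0.145). The call was also lost without LSEC WT replicate 1 (0.1), 2 (0.0626), 3 (0.0504) or 4 (0.0949), without LSEC 12 h replicate 2 (0.0589) and in a fit of the 8 libraries alone (0.0627). At 36 h all 4 libraries were above all WT libraries, as for 4.21% of genes, and the log2 fold of 0.94 ± 0.38 was not called (adjusted p = 0.414). Across the 12 LSEC libraries the genes most like Plac8 were Tle6 (Pearson r = 0.907), Bcs1l (0.888) and Ddias (0.88), none of which was among the 3 found in HSC.

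Relative to HSC, LSEC libraries held a smaller share of stellate gene RNA than of Plac8. The 10 stellate genes reached 0.0414 to 0.0456% of their HSC mean in LSEC WT, 0.0536 to 0.147% at 12 h and 0.0738 to 0.777% at 36 h. Plac8 reached 2.14 to 3.71% of its HSC mean in LSEC WT, 1.06 to 4.93% at 12 h and 2.63 to 5.03% at 36 h. The highest library was the same for both measures at 12 h (replicate 3) and at 36 h (replicate 4). The lowest differed, at 12 h replicate 2 for stellate RNA and replicate 4 for Plac8, and at 36 h replicate 1 and replicate 3. Hepatocytes averaged 1.79 ± 0.553 CPM of Plac8 in WT, 1.94 ± 0.88 CPM at 12 h and 2.26 ± 1.29 CPM at 36 h (SD, n = 4), with log2 folds against WT of 0.07 ± 0.41 (adjusted p = 0.999) at 12 h and 0.34 ± 0.41 (adjusted p = 1) at 36 h.

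Cell types were compared within each time in the joint fit of 36 libraries. S100a8, S100a9, Csf3r, Ccr2, Ly6c2 and Itgam passed the count filter of that fit only through the LSEC libraries, where they are high, so a lower level elsewhere had to follow for any that were called. Their reads are given as a description, and the tests given are those of Plac8, Lyz2 and Cxcr2, which also passed the filter in HSC alone.

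In WT, Plac8 was higher in HSC than in LSEC, beside 54.3% of 14104 genes called in either direction. Lyz2 averaged 3.46 CPM in HSC WT and 7.29 CPM in LSEC WT (log2 fold -0.92 ± 0.80, adjusted p = 0.347). HSC WT libraries had 0 reads of S100a8 and Ccr2, against 31 and 73 in LSEC WT, at least 10.6-fold and 25-fold lower (floor of 3 counts over the group, counting error only).

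At 12 h Plac8 was again higher in HSC than in LSEC, with a log2 fold of 5.44 ± 0.42 (adjusted p = 6.65e-13), beside 53.5% of genes called. Lyz2 averaged 1.18 ± 0.599 CPM in HSC 12 h and 10.2 ± 4.61 CPM in LSEC 12 h (SD, n = 4), with a log2 fold of -2.98 ± 0.87 and an edgeR adjusted p = 0.00439. All 4 HSC libraries were below all 4 LSEC libraries for Lyz2, as for 25.1% of genes. Both calls held without each of the 36 libraries. Cxcr2 was not called (log2 fold 0.53 ± 0.42, adjusted p = 0.3). Itgam averaged 0.0438 ± 0.0523 CPM in HSC 12 h and 1.06 ± 0.574 CPM in LSEC 12 h (SD, n = 4).

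At 36 h Plac8 was higher in HSC than in LSEC by a log2 fold of 4.92 ± 0.41 (adjusted p = 4.19e-12), beside 52.8% of genes called. Lyz2 averaged 1.98 CPM in HSC 36 h and 7.54 CPM in LSEC 36 h and was not called (log2 fold -1.74 ± 0.82, adjusted p = 0.0765).

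Against hepatocytes, HSC differed in Plac8 at every time. In WT the log2 fold was 6.67 ± 0.46 (adjusted p = 1.02e-14), beside 76.9% of genes called. At 12 h it was 7.93 ± 0.48 (adjusted p = 4.8e-16) and at 36 h 6.88 ± 0.46 (adjusted p = 5.38e-15), beside 75.6% and 77.2% of genes. Cxcr2, which did not pass the filter in hepatocytes alone, averaged 0.919 CPM in HSC 12 h and 0.24 CPM in hepatocyte 12 h libraries, and lay at 0.605 to 1.2 CPM in HSC 36 h and 0.131 to 0.323 CPM in hepatocyte 36 h libraries.

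Plac8 was also higher in LSEC than in hepatocytes at every time. The log2 folds were 1.36 ± 0.39 in WT (adjusted p = 0.00214), 2.49 ± 0.39 at 12 h (adjusted p = 9.25e-07) and 1.96 ± 0.38 at 36 h (adjusted p = 2.97e-05), beside 76.6%, 76.5% and 78% of genes called. Lyz2 was higher in LSEC at 12 h (log2 fold 3.90 ± 0.95, adjusted p = 0.000458) and 36 h (3.16 ± 0.93, adjusted p = 0.00284) and was not called in WT (1.14 ± 0.82, adjusted p = 0.203). The 12 h and 36 h calls of both genes held without each of the 36 libraries. LSEC 12 h libraries held 128 reads of S100a9 and 117 of Itgam, and hepatocyte 12 h libraries 0 of either. Over the pooled reads LSEC was at least 45.6-fold and 41.7-fold higher (floor of 3 counts, counting error only). These bounds leave out the spread between libraries, as LSEC 12 h replicate 1 held 2 reads of S100a9 and 7 of Itgam. Without LSEC 36 h replicate 4, S100a8 had 0 reads in LSEC 36 h and in hepatocyte 36 h libraries. Library totals in place of TMM scaling moved the median of all genes by 0.65 to 0.85 on the log2 scale in comparisons with hepatocytes.

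No member was called for a response that differed between cell types. The joint fit called 0 of 9 at 12 h for HSC minus LSEC, HSC minus hepatocytes and LSEC minus hepatocytes, beside 1.62%, 9.2% and 3.57% of genes. At an unadjusted p under 0.05 there were 0, 1 and 4 members, and DESeq2 called 0 in each. Some of the 9 gave no usable SE and could not be called, as groups compared held 0 reads. At 12 h these were S100a8 in HSC minus LSEC, S100a8, S100a9 and Ccr2 in HSC minus hepatocytes, and S100a9 and Ccr2 in LSEC minus hepatocytes. For Plac8 the rise in HSC minus that in LSEC was 0.13 ± 0.50 (adjusted p = 0.988), and in HSC minus hepatocytes 1.26 ± 0.54 (adjusted p = 0.137). The smallest adjusted p was that of Itgam in LSEC minus hepatocytes (0.0589), a gene with 0 reads in hepatocyte 12 h libraries, and it too passed the filter through LSEC. At 36 h edgeR again called 0 of 9 in each, beside 0%, 0.00709% and 0.00709% of genes, with 0, 0 and 2 members at an unadjusted p under 0.05 and 0 called by DESeq2. S100a9 in both comparisons with hepatocytes and Ccr2 in HSC minus hepatocytes could not be called there for the same lack of reads.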

How the data were processed

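The authors deposited raw read counts per gene, 1 file per library, without normalization. Per the submitters' processing notes they used FastQC 0.11.4, Trimmomatic 0.35, TopHat2 2.1.0 and SAMtools 0.1.18 with mm10. The sources used here name no counting software, strand handling or gene models. Reads in no gene (4.9 to 9.02%) were left out of totals and tests. The members and gene lists were chosen with earlier results of these data known.

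Tests used edgeR 4.0.16 under R 4.3.3 (quasi-likelihood F test, TMM scaling, filterByExpr by group with minimum count 10 and minimum total 15, Benjamini-Hochberg adjustment, threshold 0.05). The 12 libraries of a cell type shared 1 fit, and all 36 shared another for cell types and responses. The SE is the absolute log2 fold over the square root of F. The scripts were tested on simulated data. Of 54 within-group pairs 0 were identical. All 10 members are named, with called genes of each list and the 3 genes most like each member of at least 5 CPM. Loci are from GENCODE vM21 (GRCm38, which is mm10) and promoters from RefSeq.

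Same-numbered HSC and LSEC libraries deviated together from their group means (r 0.185 to 0.508 in WT, 0.266 to 0.581 at 12 h, 0.167 to 0.334 at 36 h). So did HSC 36 h with HSC WT (0.161 to 0.369), hepatocyte 36 h with hepatocyte WT (0.531 to 0.685) and HSC 36 h with LSEC WT (0.205 to 0.328). The last pair shares neither cell type nor time. Between HSC WT and LSEC WT, 2 libraries matched best with their own number. This pairing was read from the data and not from the labels. Alternatives were RLE scaling, library totals, no filter, DESeq2 1.42.0, a replicate block, only the groups or the time compared, a Malat1 term in hepatocytes and leaving out each library. A fit without HSC and LSEC replicate 4 at 36 h together was added after seeing the data.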

Additional observations from a re-analysis of the deposited data

Results flagged for a closer look

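Of 71 groups of 4 libraries with at least 1 read of a member, 17 (23.9%) had a library farther from the rest than Dixon's critical value for 4 samples allows. That value is passed by about 5% of groups when values are normally distributed. CPM of genes with few reads are not, so 5% is no expectation for these groups. In 7 of the 17 the other 3 libraries were all at 0, where a few reads make that distance.

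Replicate 4 at 36 h was that library in 8 cases. In LSEC it had 2.01 CPM of S100a8 (others 0), 4.45 CPM of S100a9 (others 0 to 0.174), 1.18 CPM of Csf3r (others 0.101 to 0.171) and 1.3 CPM of Retnlg (others 0 to 0.139). In HSC it had 0.218 CPM of S100a8 (others 0), 0.254 CPM of S100a9 (others 0 to 0.0336), 4.18 CPM of Lyz2 (others 1.12 to 1.48) and 0.145 CPM of Ly6c2 (others 0).

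In hepatocytes, 12 h replicate 1 had 1.57 CPM of Lyz2 (others 0 to 0.0981) and 0.314 CPM of Csf3r (others 0 to 0.0327), with 559 CPM of Malat1 against 24.5 to 37.2 CPM in the other 12 h libraries. Hepatocyte WT replicate 2 had 2.61 CPM of Plac8 (others 1.45 to 1.56) and 0.0363 CPM of S100a8, which is 1 read. Ccr2 in hepatocyte 36 h replicate 2 (0.179 CPM, 5 reads) and Ly6c2 in hepatocyte 12 h replicate 2 (0.0327 CPM, 1 read) were read in no other library of their groups.

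HSC WT replicate 3 had 6.32 CPM of Lyz2 (others 2.12 to 2.71) and 12.5 CPM of the 5 Kupffer genes (others 2.19 to 7.78). LSEC WT replicate 4 had 0.605 CPM of Retnlg (others 0.0332 to 0.109), and HSC 12 h replicate 3 had 0.0777 CPM of Ccr2, which is 2 reads.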

How the results depend on the processing

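Counts of called members changed by more than 1.5 times under these alternatives, with the count of the report's fit in brackets. Those between cell types include 6 genes that passed the filter only through LSEC and support nothing. DESeq2 called 3 members in LSEC 12 h against WT (1 with edgeR) and 2 in HSC 36 h against LSEC 36 h (4). Fits of the 2 groups alone called 0 in HSC 36 h against 12 h (1). Library totals called 2 in HSC WT against hepatocyte WT (1), 7 in LSEC WT against hepatocyte WT (2) and 4 in HSC 36 h against hepatocyte 36 h (2), which was 1 with no filter. Fits of the 12 libraries of a time, which tested 3 members, called 1 in HSC WT against LSEC WT, 1 in LSEC WT against hepatocyte WT, 2, 1 and 2 at 12 h for HSC against LSEC, HSC against hepatocytes and LSEC against hepatocytes, and 1 for HSC against LSEC and 3 for LSEC against hepatocytes at 36 h. Without both replicate 4 libraries at 36 h, 4 were called in LSEC WT against hepatocyte WT and 1 in HSC 36 h against hepatocyte 36 h. With the replicate block, 0 were called in LSEC 12 h against WT, where the libraries share only a number (r -0.2 to 0.492), and 4 in LSEC WT against hepatocyte WT. The block changed no other count by this much.

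Leaving out 1 library at a time, the called members numbered 1 to 2 in HSC 12 h against WT, 0 to 1 in HSC 36 h against 12 h, 0 to 2 in LSEC 12 h against WT, 0 to 3 in LSEC 36 h against 12 h, and 0 in HSC 36 h, LSEC 36 h and the 2 hepatocyte groups against WT. Between cell types they numbered 2 to 4 (HSC against LSEC), 1 to 2 (HSC against hepatocytes) and 2 to 4 (LSEC against hepatocytes) in WT, 7 to 8, 2 to 3 and 7 to 9 at 12 h, and 2 to 6, 1 to 3 and 5 to 8 at 36 h. For responses they numbered 0, and 0 to 2 for LSEC minus hepatocytes at 12 h.

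Some log2 folds changed sign, none of them called except S100a8 in LSEC 36 h against hepatocyte 36 h. The block gave -0.68 for S100a8 in LSEC 36 h against WT, library totals gave 0.04 for Lyz2 there, the Malat1 term gave -0.38 for Lyz2 in hepatocyte 36 h against 12 h, and without both replicate 4 libraries S100a8 in LSEC 36 h against hepatocyte 36 h was 0. Leaving out 1 library, Cxcr2 in HSC ran from -0.12 to 0.18 at 12 h and from -0.3 to 0.03 at 36 h against WT, and from -0.35 to 0.03 between these times. In LSEC against WT, Ccr2 ran from -0.36 to 0.6 at 12 h, and at 36 h S100a8 from -5.98 (a fitted value against 0 reads, no bound) to 1.18, S100a9 from -1.41 to 2.71, Lyz2 from -0.64 to 0.33, Csf3r from -0.4 to 1.43 and Ly6c2 from -0.83 to 0.82. In LSEC 36 h against 12 h, S100a9 ran from -3.81 to 0.32 and Plac8 from -0.56 to 0.25. In hepatocytes Plac8 ran from -0.16 to 0.27 at 12 h and -0.07 to 0.62 at 36 h against WT and -0.14 to 0.55 between these times, and Lyz2 from -1.19 to 3.58 between them. S100a8 in LSEC 36 h against hepatocyte 36 h ran from 0 to 6.87. The causes were not tested. Depth limits the 8 scarce members, with 0 to 113 reads per library.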
